A study of Mus musculus with 20 samples.

Results

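The skeletal muscle contractile and metabolic genes are 42 genes of the sarcomere, of calcium handling, of energy supply and of muscle mass control, picked by symbol from a list that was written with the AD results of these libraries in view. All 42 were found in the AD table of 19234 genes and in the ACD table of 19501 genes. Their transcripts were measured by RNA sequencing of ear tissue from C57BL/6 mice of 6 to 7 weeks. SB415286, which blocks the kinase GSK3, was given by intraperitoneal injection at 0.7 mg/kg in AD model mice and at 2 mg/kg in ACD model mice, and ears were collected after 4 h. Control ears came from AD model and ACD model mice that the sample labels call untreated and the design text calls vehicle controls. Each of the 4 groups had 5 libraries, 20 in all. The labels do not spell out AD and ACD, and the protocol text names AD for both doses, so the doses were taken from the sample labels and the design text. Nothing in the labels names a transgene, a pooled sample or the amount of muscle in an ear, and what separates the replicates beyond separate samples is not stated, so p-values measure the spread between these samples.

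Skeletal muscle shortens when myosin of the thick filament pulls on actin of the thin filament, a step that troponin opens once calcium leaves the sarcoplasmic reticulum. Fast and slow fibres carry different genes for myosin chains, troponins and calcium pumps, and creatine kinase, myoglobin and glycolytic enzymes feed the cycle. In the outer ear the striated fibres lie in small muscles near the base, while the flap holds skin and cartilage with smooth muscle in vessels and hair follicles.

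The label of the list was checked against defining markers. Transcripts that define striated muscle were detected in every library, and the 42 genes summed to 274 to 6487 CPM (counts scaled to library size with TMM factors). The list of 10 heart genes summed to 15.0 to 52.3 CPM over all libraries. Its defining genes Myh6 and Nppa were the lowest, at 0.104 and 0.0969 CPM in AD controls, while Tnnt2 averaged 14.5 ± 5.17 CPM in AD SB415286 ears and 12.1 ± 5.51 CPM in AD controls (SD, n = 5 each). Myl7, an atrial light chain gene, averaged 15.2 ± 8.88 CPM in AD SB415286 ears and 3.58 ± 1.498 CPM in AD controls and did not pass (edgeR adjusted p = 0.0540). In ACD ears Nppb was the highest of the list, at 17.3 ± 7.60 CPM with SB415286 and 12.3 ± 1.56 CPM in controls. Total counts were 18.2 to 20.9 M (M, mega-counts) in AD libraries and 18.8 to 20.2 M in ACD libraries. The members took between 0.0267% and 0.653% of these counts.

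Single libraries stood apart in muscle transcripts within their groups. Of all counts in SB415286 libraries 2, 3, 4, 6 and 7 of the AD model, 0.505%, 0.193%, 0.181%, 0.255% and 0.0336% came from the members, against 0.400%, 0.305%, 0.285%, 0.313% and 0.653% in AD controls 1, 2, 4, 5 and 6. In the ACD model the shares were 0.141%, 0.164%, 0.154%, 0.0956% and 0.0267% in SB415286 libraries 3, 4, 5, 7 and 8, against 0.192%, 0.165%, 0.0866%, 0.199% and 0.166% in controls 1, 3, 4, 5 and 6. AD SB415286 library 7 and ACD SB415286 library 8 thus held the fewest muscle reads of their models, AD control 6 the most of all, and both pairs of groups overlapped. Throughout, values per library follow the order of these library numbers. Results that rest on these libraries are given with and without them.

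Promoter sequence was examined to describe the members, and any link between it and their levels was not tested. RefSeq promoter windows of GRCm38.p6, 300 bases that end 50 bases after a start site, were found for 32 of the 42 members. CAGCTG, the letters that myogenic bHLH factors are known to prefer and which read the same on both strands, stood in the windows of 18 of these 32 genes (56.2%), against 18.3% of the 27025 genes with a window. The MEF2 consensus, searched on both strands, stood in 7 (21.9%), against 3.7% of all genes. TATAAA, also on both strands, stood in 9 (28.1%), against 15.7%. Of 50 other skeletal muscle genes with a window, 46% held CAGCTG, 20% the MEF2 consensus and 22% TATAAA. A match describes the letters only and is not a measured binding site. Stretches of the 200 bases before a start site are shown, 5′ to 3′ on the strand of the gene, with CAGCTG and the MEF2 consensus in capitals. They are those of Myh4 and Mylk4, which hold both motifs, of Mylpf, an abundant light chain gene, and of Trim63, whose AD fold change was above 0, unlike most members.
Myh4 (chr11:67237612-67237811, plus strand): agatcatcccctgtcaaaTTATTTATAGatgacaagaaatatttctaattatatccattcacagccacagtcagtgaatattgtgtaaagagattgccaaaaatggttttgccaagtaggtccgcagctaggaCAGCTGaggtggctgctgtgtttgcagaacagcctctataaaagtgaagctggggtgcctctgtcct
Mylk4 (chr13:32783965-32784164, minus strand, 1 of the annotated starts inside the gene): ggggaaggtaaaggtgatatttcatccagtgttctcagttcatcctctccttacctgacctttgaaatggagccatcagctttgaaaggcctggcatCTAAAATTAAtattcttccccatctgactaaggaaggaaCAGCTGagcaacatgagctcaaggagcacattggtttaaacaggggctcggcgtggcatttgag
Mylpf (chr7:127211408-127211607, plus strand, before a start inside the annotated gene): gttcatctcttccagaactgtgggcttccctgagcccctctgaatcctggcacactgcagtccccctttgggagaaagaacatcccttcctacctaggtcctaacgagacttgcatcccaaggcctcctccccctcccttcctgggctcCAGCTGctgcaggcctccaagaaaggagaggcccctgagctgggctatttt
Trim63 (chr4:134314920-134315119, plus strand): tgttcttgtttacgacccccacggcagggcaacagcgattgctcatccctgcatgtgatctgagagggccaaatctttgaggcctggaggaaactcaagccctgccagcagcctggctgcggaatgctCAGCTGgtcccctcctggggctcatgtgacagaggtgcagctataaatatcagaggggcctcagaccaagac
CAGCTG began 67 bases before the start site in Myh4, 64 in Mylk4, 51 in Mylpf and 72 in Trim63. The MEF2 match began 182 bases before the start in Myh4, where it overlaps TATAAA on the other strand, and 103 before it in Mylk4. Both Myh4 and Trim63 also hold TATAAA 31 bases before the start.

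Levels between genes are compared in the authors' FPKM, which divides by transcript length. Acta1, which encodes the actin of the skeletal thin filament, was the most abundant member with a mean of 217 FPKM over the 20 libraries. Mylpf, the fast regulatory light chain, followed at 136 FPKM, then the oxygen store Mb at 115 and the fast troponin T gene Tnnt3 at 115. These 4 genes had SDs within a group of 63.0 to 129 FPKM for Acta1 and of at least 26.1 FPKM for the others. That spread lies between libraries, which the genes share. Within libraries Acta1 was above Mylpf in all 20, by the least in AD SB415286 library 7, at 16.0 against 14.9 FPKM. The order of Mylpf, Mb and Tnnt3 changed from library to library. At the other end Ky stood at 0.205, Mylk4 at 0.297 and Mstn at 0.358 FPKM. The lowest members were thus sampled by few reads, and Ky had 4 to 14 counts in AD SB415286 libraries and 31 to 108 in AD controls.

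Myosin heavy chain, whose isoform sets the speed of a fibre, was mostly Myh1 in every library. Myh1, the fast type IIx chain, made up 83.2 ± 5.26% (SD, n = 5) of the FPKM of Myh1, Myh2, Myh4 and Myh7 in AD SB415286 ears and 74.6 ± 4.49% in AD controls. It made up 77.5 ± 4.96% in ACD SB415286 ears and 74.5 ± 1.88% in ACD controls. Myh7, the slow chain, reached at most 0.469% in AD SB415286 ears, 1.53% in AD controls, 2.46% in ACD SB415286 ears and 2.88% in ACD controls. Myh1, Myh2 and Myh4 are near-identical neighbours whose reads the authors' estimation had to divide, so the split between them is uncertain, more than their sum.

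The AD comparison asked what GSK3 inhibition changes in ears of AD model mice, and because the list was drawn up with this contrast known its values are a description without a test. The members were lower as a body: 39 of 42 had a log2 fold change below 0, against 49.9% of all 15149 genes tested (50.1% were above), and their median was -0.98 against 0.00 for all genes. Most members rose and fell together between libraries, so these signs are not independent. Of the 42, 6 were called lower at an adjusted p under 0.05 and 0 higher, and over all genes 1.23% were called, 0.647% lower and 0.587% higher. The 6 were Ky, Myl2, Mylk4, Mstn, Synpo2l and Jph2. In bulk tissue fewer muscle cells and less RNA per muscle cell cannot be told apart. Each of Ky, Myl2, Mylk4, Mstn and Synpo2l passed in 2 of the 10 fits that left out 1 library, those without SB415286 library 7 and without control 6, and Jph2 passed in 3.

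**Figure D1:**
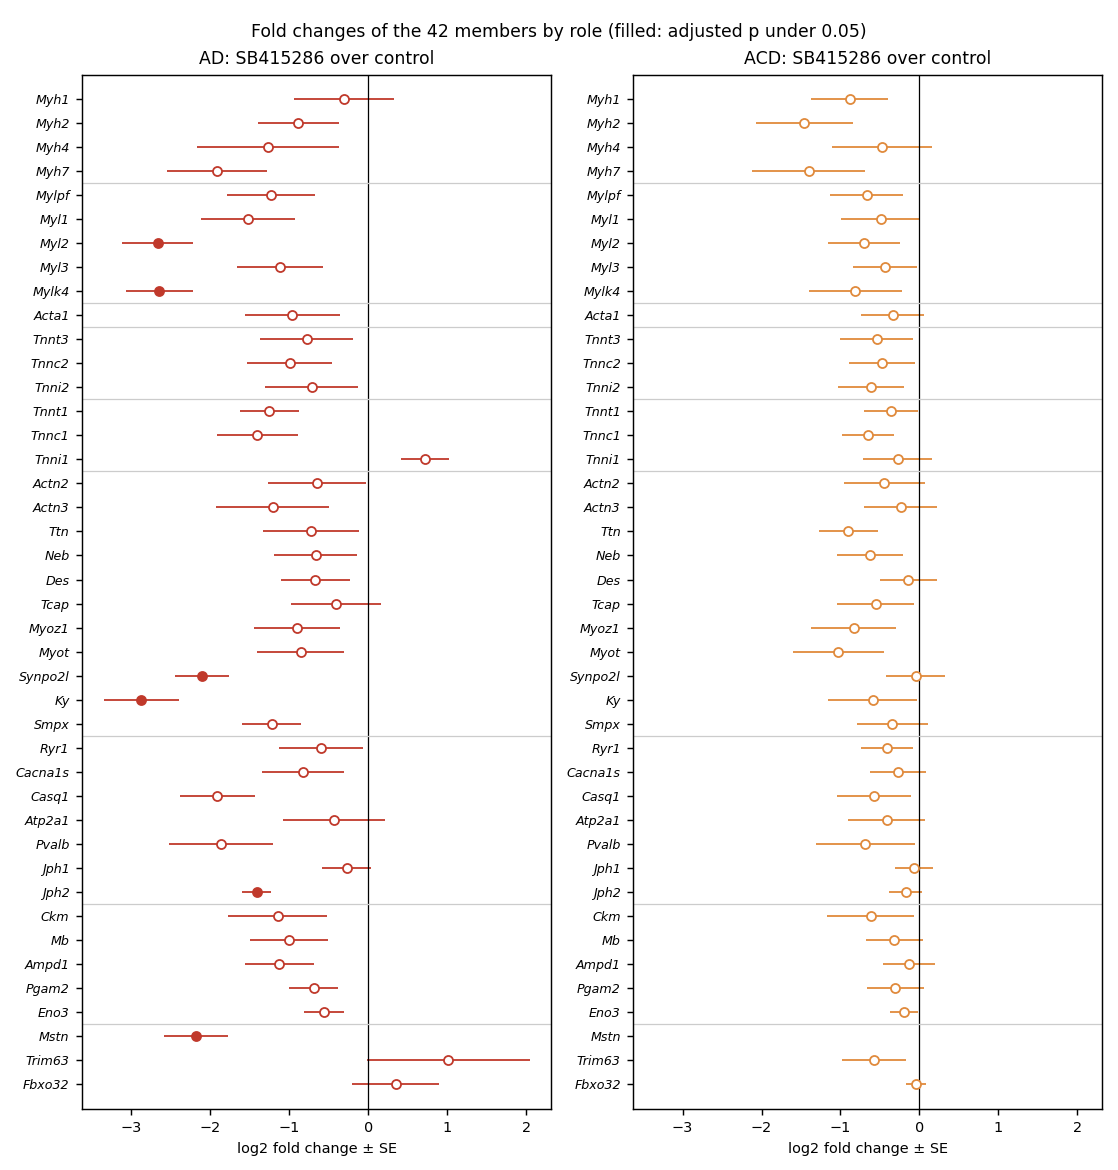
Log2 fold changes (x axis, SB415286 over control) with standard errors for the 42 members, ordered by role from myosin heavy chains at the top to muscle mass genes at the bottom, in the AD model (left) and the ACD model (right). Filled points had an adjusted p under 0.05. In AD 6 points are filled and all 6 are below 0, in ACD none is filled and all 41 tested members lie below 0.

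Among the myosin heavy chains no member was called in AD and the group median was -1.08. Myh1 had 1079, 355, 415, 701 and 50.4 CPM in AD SB415286 libraries, against 425, 354, 481, 585 and 1373 CPM in AD controls, a log2 fold change of -0.31 ± 0.64 (SE, n = 5 per group). SB415286 library 2 lay near the top of both groups and library 7 far below every other, and the groups overlapped. Myh4, the fastest chain, had 98.3, 70.3, 23.9, 57.3 and 0.0473 CPM with SB415286, against 62.2, 89.5, 82.3, 89.1 and 278 CPM in controls (-1.27 ± 0.90). Only 1 Myh4 count was left in SB415286 library 7, while control 6 had the highest value by far. Myh7, the slow chain, was lower on average, at 1.79 ± 1.36 CPM with SB415286 and 6.74 ± 3.31 CPM in controls (SD, n = 5 each), with -1.92 ± 0.63 on the log2 scale. Myh2, the fast type IIa chain, was at -0.88 ± 0.51.

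All 5 light chain and kinase genes were below 0 in AD, with a median of -1.52. Myl2, the regulatory light chain of slow fibres (Entrez Gene 17906, chr5:122092724-122113473), had 1.22, 0.681, 0.773, 0.949 and 0.142 CPM with SB415286, against 7.02, 5.81, 2.21, 4.35 and 4.47 CPM in controls. Every SB415286 library lay below every control, and library 7 was the lowest. Its log2 fold change was -2.67 ± 0.45. Mylk4, a myosin light chain kinase family gene (238564, chr13:32700824-32806773), had 1.71, 0.535, 0.309, 1.11 and 0.568 CPM with SB415286, against 8.23, 4.86, 4.61, 5.38 and 3.40 CPM in controls, or -2.65 ± 0.42. Here too the groups did not overlap, and library 7 sat in the middle of its group rather than at its foot. Mylpf had 153, 44.7, 44.1, 52.9 and 9.74 CPM with SB415286, against 240.2, 118, 98.7, 123 and 137 CPM in controls (-1.24 ± 0.56). Myl1 had 91.5, 39.8, 27.7, 46.4 and 5.25 CPM with SB415286, against 246, 83.0, 74.1, 89.4 and 112 CPM in controls (-1.52 ± 0.60). In both genes library 2 alone overlapped the controls and control 1 was the highest library. The slow essential chain Myl3 was at -1.12 ± 0.54 from at most 36 counts.

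Acta1 had 524, 198, 155, 218 and 22.0 CPM in AD SB415286 libraries, against 614, 334, 329, 303 and 591 CPM in AD controls. Library 2 stood among the highest controls, the other SB415286 libraries lay below every control, and the log2 fold change was -0.96 ± 0.60. The plot of abundant members shows library 7 at the foot of its group in each gene.

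**Figure D2:**
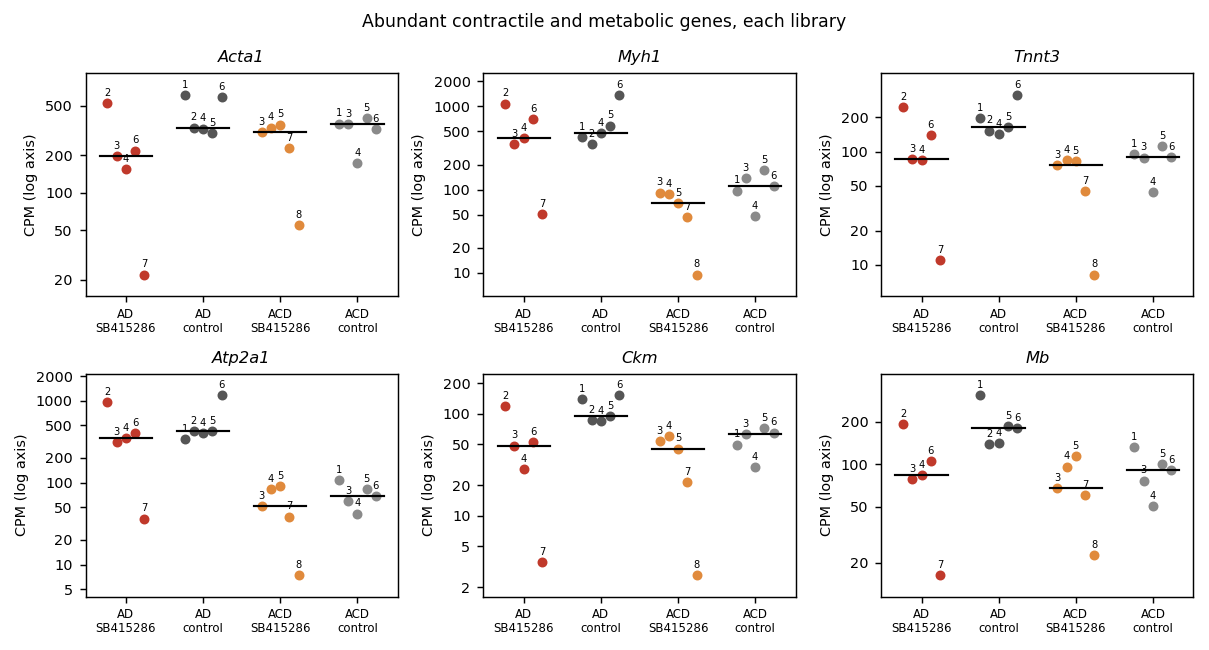
CPM on a log axis for the actin Acta1, the myosin Myh1, the troponin Tnnt3, the calcium pump Atp2a1, the creatine kinase Ckm and the oxygen store Mb in each library of AD SB415286, AD control, ACD SB415286 and ACD control ears, 5 points a group with the library number above each and a bar at the median. Library 7 of AD SB415286 and library 8 of ACD SB415286 are the lowest points of their models in all 6 genes.

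The fast troponins of AD ears, which make thin filaments answer to calcium in fast fibres, did not pass. Tnnt3 had 248, 85.4, 84.3, 139.7 and 10.9 CPM with SB415286, against 197, 153, 144, 164 and 317 CPM in controls (-0.78 ± 0.59). Tnni2, the fast inhibitory subunit, had 137, 49.6, 48.8, 69.5 and 5.63 CPM with SB415286, against 113, 78.3, 73.9, 85.6 and 160.1 CPM in controls (-0.72 ± 0.58). In both, library 2 exceeded all controls but control 6, and the other SB415286 libraries lay below every control. Tnnc2, the fast calcium-binding subunit, was at -0.995 ± 0.54. The slow troponins did not share 1 direction. Tnnt1 had 17.5, 12.5, 12.4, 12.8 and 3.03 CPM with SB415286, against 40.4, 26.1, 17.9, 25.2 and 28.9 CPM in controls, every SB415286 library below every control (-1.25 ± 0.37). Tnni1, the slow inhibitory subunit (21952, chr1:135783033-135810989), had 18.4, 17.6, 21.1, 22.9 and 5.82 CPM with SB415286, against 9.40, 13.2, 8.28, 9.78 and 11.6 CPM in controls. Its SB415286 libraries 2, 3, 4 and 6 lay above every control and library 7 below every control, which left a log2 fold change of 0.71 ± 0.31. Tnnc1, the slow calcium-binding subunit, was at -1.41 ± 0.51.

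Each slow gene was set against its fast counterpart within a library, which takes out only a change that both genes share. Tnni1 was 8.46%, 21.8%, 27.5%, 20.6% and 63.0% of Tnni2 in FPKM in AD SB415286 libraries, against 5.49%, 10.8%, 7.11%, 7.12% and 4.55% in AD controls. Library 2 fell within the control range and the other 4 lay above it. In ACD ears Tnni1 was 7.34%, 4.29%, 3.38%, 4.63% and 11.9% of Tnni2 with SB415286, against 1.83%, 5.39%, 2.64%, 5.61% and 4.65% in controls. The pair Myl2 and Mylpf went the other way in AD, with Myl2 at 0.896%, 1.74%, 1.957%, 1.94% and 0.537% of Mylpf with SB415286, against 3.29%, 5.52%, 2.51%, 3.97% and 3.61% in controls. Tnnt1 stayed between 6.78% and 27.8% of Tnnt3 in AD SB415286 ears and between 8.83% and 20.4% in AD controls. In ACD ears it was 18.1% to 50.1% with SB415286 and 16.8% to 21.7% in controls. AD SB415286 library 7 and ACD SB415286 library 8, with the fewest muscle reads, had the highest Tnni1 and Tnnt1 ratios of their models. Myl2 over Mylpf was lowest in AD library 7 but not in ACD library 8. The ratios thus did not set aside how much muscle RNA a library held. The slow genes did not move as a block against the fast ones in AD ears.

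**Figure D3:**
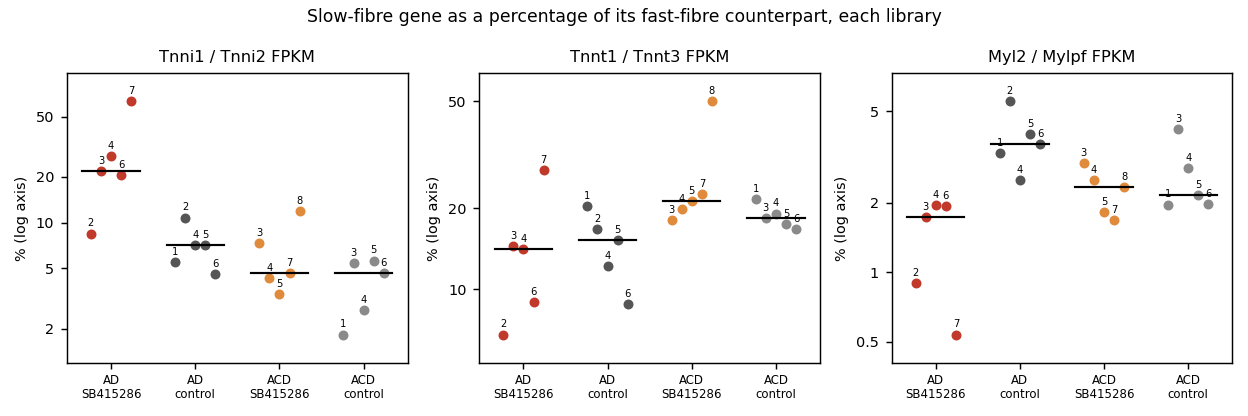
FPKM of a slow-fibre gene as a percentage of its fast-fibre counterpart (y axis, log scale) for Tnni1 over Tnni2, Tnnt1 over Tnnt3 and Myl2 over Mylpf, with 1 point per library, its number above it, and a bar at the median of each group. In AD SB415286 ears the median of Tnni1 over Tnni2 is 21.8%, against 7.11% in AD controls, and that of Myl2 over Mylpf is 1.74%, against 3.61%.

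The Z-disc and scaffold genes, which anchor filaments and keep sarcomeres in register, had a median of -0.86 in AD, and all 11 were below 0. Ky, a muscle protease-like protein of the Z-disc (16716, chr9:102505755-102546247), had 0.221, 0.681, 0.258, 0.422 and 0.189 CPM with SB415286, against 5.23, 3.13, 1.57, 1.78 and 1.505 CPM in controls, or -2.87 ± 0.48. The 5 SB415286 libraries all lay below the lowest control, on 4, 14, 5, 8 and 4 counts against 108, 69, 32, 36 and 31 counts. Synpo2l, an actin-associated Z-disc protein (68760, chr14:20658945-20668354), had 2.76, 1.70, 1.55, 1.69 and 1.09 CPM with SB415286, against 12.7, 9.39, 4.56, 6.07 and 5.05 CPM in controls. The groups did not overlap, and the log2 fold change was -2.10 ± 0.34. The giant spring Ttn was at -0.73 ± 0.61 and the thin filament ruler Neb at -0.67 ± 0.52, each with overlapping groups. Des, the intermediate filament gene, had 244, 109, 116, 139.5 and 32.3 CPM with SB415286, against 199, 153, 162, 158 and 351 CPM in controls (-0.67 ± 0.44). Tcap, the titin cap, had 167, 66.6, 60.6, 81.3 and 9.08 CPM with SB415286, against 95.2, 76.8, 64.3, 87.8 and 188 CPM in controls (-0.41 ± 0.57). Control 6 was the highest and SB415286 library 2 the next in both. Actn2, Actn3, Myoz1, Myot and Smpx, further Z-disc genes, ran from -1.22 to -0.65. Desmin is also made by smooth muscle, whose genes are given further on.

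All 7 calcium genes were below 0 in AD. Jph2, which ties the sarcoplasmic reticulum to the surface membrane (59091, chr2:163336242-163398049), had 3.37, 3.31, 2.73, 3.32 and 2.32 CPM with SB415286, against 9.93, 9.48, 5.59, 7.51 and 7.62 CPM in controls. Both groups were narrow and did not overlap, with a log2 fold change of -1.41 ± 0.19, the smallest standard error among the members. Its relative Jph1 was at -0.28 ± 0.31. Casq1, which stores calcium in the reticulum, had 9.34, 4.86, 2.84, 5.64 and 1.09 CPM with SB415286, against 30.8, 16.8, 13.5, 15.7 and 12.3 CPM in controls (-1.91 ± 0.48). Pvalb, a soluble calcium buffer of fast fibres, had 6.63, 6.27, 1.75, 3.43 and 0.0946 CPM with SB415286, against 14.4, 14.5, 8.92, 9.58 and 18.9 CPM in controls (-1.87 ± 0.66). In Casq1 and Pvalb every SB415286 library was below every control, though neither gene was called. Counting these, 9 of 42 members were below in every SB415286 library, against 2.37% of all genes, and 0 were above in every library, against 2.28%. The pump Atp2a1 had 958, 311, 351, 399 and 36.4 CPM with SB415286, against 341, 426, 404, 424 and 1171 CPM in controls. Control 6 and SB415286 library 2 were both high, and the log2 fold change was -0.43 ± 0.65. The release channel Ryr1 was at -0.60 ± 0.54 and the voltage sensor Cacna1s at -0.83 ± 0.51.

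Of the energy genes none was called in AD and all 5 were below 0. Mb had 193, 78.5, 84.4, 105 and 16.4 CPM with SB415286, against 310.2, 139, 142, 187 and 180.4 CPM in controls, or -1.004 ± 0.49. SB415286 library 2 exceeded 4 of the 5 controls and the rest lay below all of them. Ckm, the muscle creatine kinase, had 119, 48.6, 28.7, 52.7 and 3.50 CPM with SB415286, against 139, 86.4, 85.1, 95.2 and 152 CPM in controls (-1.15 ± 0.63). The AMP deaminase Ampd1 was at -1.13 ± 0.44, and the glycolytic genes Pgam2 and Eno3 at -0.69 ± 0.31 and -0.56 ± 0.26.

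The muscle mass genes split. Mstn encodes myostatin, a secreted brake on muscle growth (17700, chr1:53061640-53068079). It had 0.718, 0.778, 0.155, 0.475 and 0.378 CPM with SB415286, against 2.91, 2.63, 2.84, 2.07 and 1.02 CPM in controls, without overlap (-2.18 ± 0.41). Trim63, a ubiquitin ligase of muscle wasting (433766, chr4:134315120-134329629), had 84.0, 18.6, 22.4, 25.9 and 0.851 CPM with SB415286, against 3.39, 2.54, 6.03, 8.05 and 55.0 CPM in controls. SB415286 library 7 was below every control and control 6 above 4 of the 5 SB415286 libraries, and the log2 fold change was 1.01 ± 1.03. Fbxo32, the other wasting-linked ligase gene (67731, chr15:58175879-58214892), had 108, 59.6, 67.9, 70.5 and 18.2 CPM with SB415286, against 23.3, 21.4, 37.8, 41.7 and 129.8 CPM in controls. The same 2 libraries crossed over, with 0.35 ± 0.55 on the log2 scale. Trim63, Fbxo32 and Tnni1 were the 3 members above 0 in AD.

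**Figure D4:**
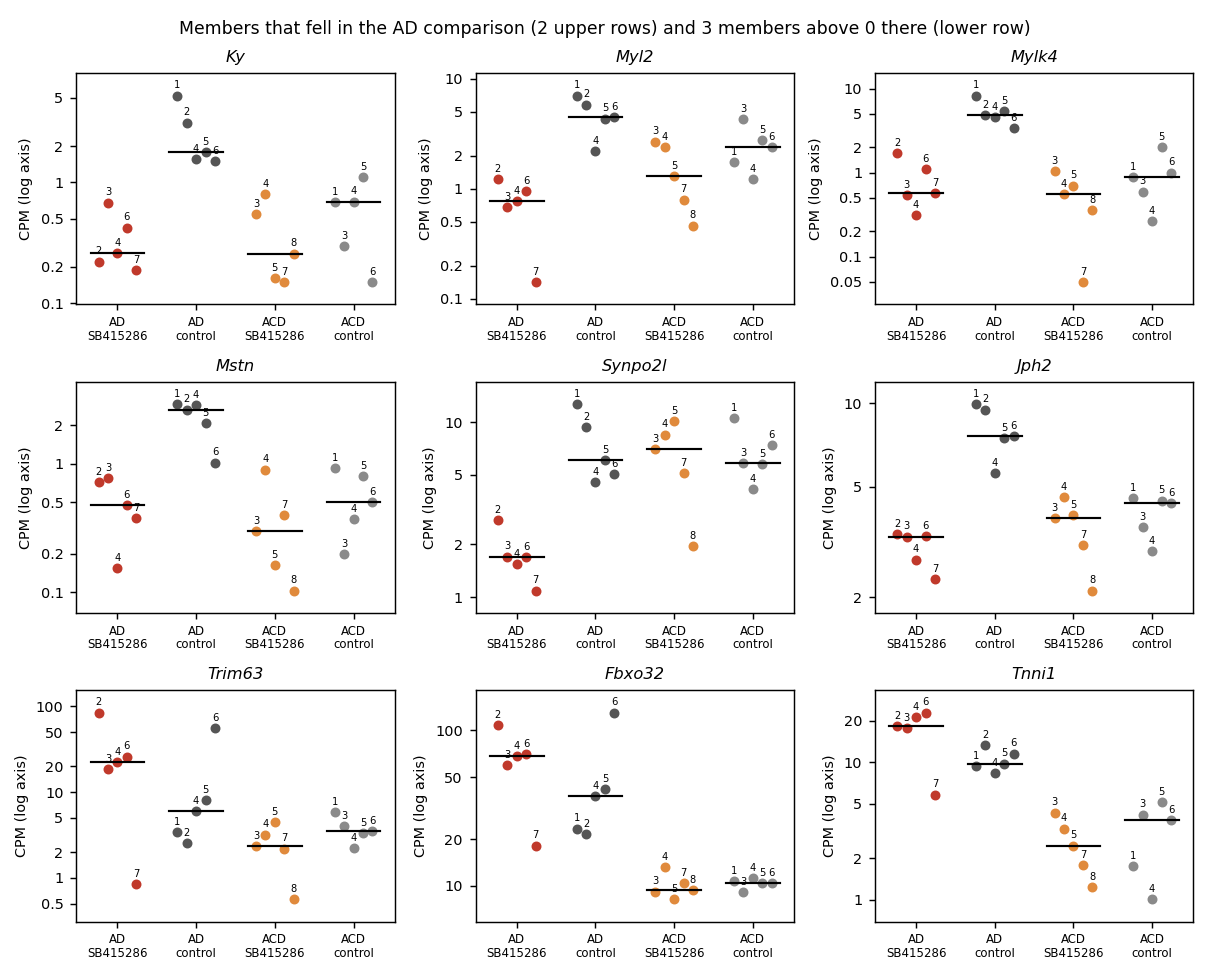
CPM per library on a log axis for the 6 members called lower in AD (Ky, Myl2, Mylk4, Mstn, Synpo2l and Jph2, upper 2 rows) and for Trim63, Fbxo32 and Tnni1 (lower row), in AD SB415286, AD control, ACD SB415286 and ACD control ears, with library numbers and a bar at each median. In the upper rows the AD groups do not overlap and the ACD groups do. In the lower row AD SB415286 library 7 lies below every AD control.

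These AD values depended on SB415286 library 7 and control 6. Without library 7 the member median was -0.69 and 10 members were called. Without control 6 it was -0.69 and 7 were called. Without both it was -0.43, with 11 members called lower and 3 higher. Members passed there at larger unadjusted p-values than in the main fit, so more genes of any kind were called. The shares of all genes called in these fits are not given. The member counts thus cannot show a change particular to the members. The 3 higher were Trim63 at 2.91 ± 0.59, Fbxo32 at 1.29 ± 0.26 and Tnni1 at 0.97 ± 0.15, while Myh1, Tcap and Atp2a1 stood above 0 at 0.46, 0.21 and 0.33 without being called. These 2 libraries were chosen with their values known, library 7 as the lowest in muscle reads and control 6 as the highest, so the fit without them is a description. Leaving them out brought the groups closer for most members. It drew them apart for Trim63, Fbxo32 and Tnni1, in which each of the pair lay toward or beyond the other group. Mstn also went from -2.18 to -2.29, Mylk4 slightly from -2.65 to -2.67, and Myh1 from -0.31 to 0.46. Ky, Myl2, Mylk4, Mstn, Synpo2l and Jph2 were below 0 in each of these fits.

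The 2 low libraries were low for most members but not evenly. In AD SB415286 library 7 Myh4 stood at 0.0742% of the median of the other 4 SB415286 libraries, Pvalb at 1.95%, Trim63 at 3.52% and Acta1 at 10.6%. Eno3 stood at 72.5% there, Jph2 at 69.9%, Mylk4 at 69.1% and Synpo2l at 64.2%. In ACD SB415286 library 8 Myh4 stood at 1.06% of the other 4, Pvalb at 1.90% and Acta1 at 17.2%, while Jph1, Ampd1 and Fbxo32 were at 139%, 107% and 96.3%. Of the 6 members called in AD, Jph2, Mylk4, Synpo2l, Mstn and Ky kept 55.7% or more in AD library 7, and Myl2 kept 16.5%. Several of these shares rest on few reads and are imprecise. AD library 7 had 4 counts of Ky, 8 of Mstn, 12 of Mylk4, 3 of Myl2 and 2 of Pvalb. ACD library 8 had 3 counts each of Myh4 and Pvalb.

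The ACD comparison put the same question to ears of ACD model mice at 2 mg/kg, and 41 members were tested, all but Mstn, which had too few reads. No member was called higher or lower by the edgeR quasi-likelihood test after Benjamini-Hochberg adjustment, where 0.0264% of all 15150 genes were called, 0.0198% higher and 0.00660% lower. At an unadjusted p under 0.05 there were 2 of 41 members, where 2092 of all 15150 genes were. DESeq2 and limma voom also called 0 members (3 and 1 at an unadjusted p under 0.05). All 41 had a log2 fold change below 0, against 51.5% of all genes (48.5% were above), with a median of -0.47 against -0.01. Most members moved together from library to library, so their signs are not independent. No member had groups that did not overlap, against 3.31% of all genes, 1.59% with every SB415286 library below. Without SB415286 library 8 the median was -0.21, and Des and Synpo2l stood above 0, at 0.0789 and 0.18. A replicate block, described further on, gave a median of 0.0762.

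Myh2, the type IIa chain, had the smallest p in ACD. It had 13.2, 9.33, 6.21, 2.74 and 1.70 CPM with SB415286, against 7.87, 19.1, 5.76, 42.5 and 15.9 CPM in controls. Control 5 was the highest of all, and SB415286 libraries 3, 4 and 5 lay within the control range. The log2 fold change was -1.46 ± 0.61 (SE, n = 5 per group), with an adjusted p = 0.327 by edgeR. Ttn had 18.6, 19.3, 17.7, 13.4 and 3.40 CPM with SB415286, against 34.02, 29.1, 13.8, 33.3 and 25.1 CPM in controls, and -0.90 ± 0.38 (edgeR adjusted p = 0.327). Control 4 was the lowest control and lay below 3 of the 5 SB415286 libraries. Myh1 was at -0.88 ± 0.49, Myh4 at -0.47 ± 0.63 and Myh7 at -1.40 ± 0.72.

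Acta1 had 307, 334, 354, 229 and 55.3 CPM in ACD SB415286 libraries, against 361, 357, 174, 399 and 324 CPM in ACD controls. Library 8 was the lowest and the other SB415286 libraries lay within the control range, with -0.34 ± 0.40 on the log2 scale. The light chain group had a median of -0.67, the fast troponins -0.54, the slow troponins -0.36 and the scaffold genes -0.55. Calcium genes had a median of -0.41 and energy genes -0.31. Mb had 67.6, 96.4, 114, 60.6 and 22.6 CPM with SB415286, against 132, 76.7, 50.7, 100.1 and 90.6 CPM in controls (-0.32 ± 0.36). Tnnt3 had 75.3, 83.4, 82.1, 44.4 and 8.14 CPM with SB415286, against 94.4, 88.5, 43.8, 111 and 89.8 CPM in controls (-0.54 ± 0.47). In Mb and Tnnt3 library 8 was below every control and the other 4 libraries were within the control range. Within the calcium group Atp2a1 had 51.9, 83.0, 89.9, 38.4 and 7.47 CPM with SB415286, against 107, 60.0, 41.96, 83.3 and 68.6 CPM in controls (-0.41 ± 0.49). Libraries 7 and 8 lay below every control, and the other 3 within the control range.

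Of the 6 members called in AD, the 5 tested in ACD lay between -0.81 and -0.05 there, and none passed. Jph2 had 3.87, 4.59, 3.94, 3.09 and 2.11 CPM with SB415286, against 4.55, 3.57, 2.93, 4.46 and 4.36 CPM in controls (-0.18 ± 0.21, edgeR adjusted p = 0.747). Synpo2l had 6.99, 8.49, 10.1, 5.13 and 1.957 CPM with SB415286, against 10.6, 5.81, 4.16, 5.76 and 7.36 CPM in controls (-0.05 ± 0.37, edgeR adjusted p = 0.969). In Jph2 library 4 was above every control and library 8 below every control, and in Synpo2l 4 of the 5 SB415286 libraries lay within the control range. Myl2 was at -0.70 ± 0.46, Mylk4 at -0.81 ± 0.59 and Ky at -0.59 ± 0.57 in ACD, and Mstn averaged 0.372 ± 0.316 CPM with SB415286 and 0.561 ± 0.301 CPM in controls (SD, n = 5 each). Trim63 had 2.33, 3.19, 4.43, 2.19 and 0.567 CPM with SB415286, against 5.82, 4.02, 2.24, 3.31 and 3.51 CPM in controls (-0.58 ± 0.41). Fbxo32 was nearly level, at 10.1 ± 1.92 CPM with SB415286 and 10.4 ± 0.789 CPM in controls (-0.04 ± 0.13).

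The difference between the SB415286 effects, ACD minus AD, was tested in 1 fit of all 20 libraries. By the edgeR quasi-likelihood test after Benjamini-Hochberg adjustment 0 of 42 members passed, where 0.0510% of 15700 genes did, 0.0318% with a higher effect in ACD and 0.0191% with a lower one. At an unadjusted p under 0.05 there were 6, namely Jph2, Synpo2l, Myl2, Ky, Mylk4 and Mstn. They are the 6 called in AD, and the AD contrast is 1 side of this difference, so that match was favoured in advance. The number of all genes at that p is not given. DESeq2 and limma voom passed 2 each, and the shares of all genes there are not given. The AD side of this difference is the contrast behind the list, so the count is given without weight. Doses and tables also differed between the models.

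Control ears of the 2 models were compared for how much muscle RNA they held, on CPM scaled over all 20 libraries. The members were lower in ACD controls than in AD controls: 19 of 42 fell and 0 rose by the edgeR quasi-likelihood test after Benjamini-Hochberg adjustment. Over all 15700 genes 32.0% fell and 29.5% rose, 61.6% in all. The member median was -1.01, against -0.04 for all genes, and 40 of 42 members were below 0, against 52.5% of all genes (47.5% were above). In 24 of 42 members every ACD control lay below every AD control, against 24.2% of all genes, and in 0 above, against 23.2%. Groups did not overlap in 47.3% of all genes. The members share libraries, so their counts here are not independent. The model, the table and any batch cannot be told apart here. Without AD control 6, which held the most muscle reads, 17 members fell and the median was -0.94. The share of all genes called without it is not given.

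Atp2a1, the calcium pump of fast fibres, had the largest fall. It had 109, 60.6, 42.5, 84.2 and 68.9 CPM in ACD controls, against 334, 418, 395, 419 and 1147 CPM in AD controls. Every ACD control lay below every AD control, and the log2 fold change was -2.89 ± 0.66 (edgeR adjusted p = 0.00102). Myh4 had 25.2, 17.0, 11.9, 8.46 and 19.3 CPM in ACD controls, against 60.9, 87.8, 80.7, 88.0 and 272 CPM in AD controls (-2.85 ± 0.87, edgeR adjusted p = 0.00833). Tcap had 18.5, 12.8, 8.31, 25.6 and 15.7 CPM in ACD controls, against 93.3, 75.4, 63.0, 86.7 and 184 CPM in AD controls (-2.63 ± 0.60, edgeR adjusted p = 0.000940). Both genes were without overlap, with AD control 6 the highest in each. Myh1 had 99.3, 138, 48.5, 175 and 109 CPM in ACD controls, against 416, 348, 471, 577 and 1345 CPM in AD controls (-2.47 ± 0.64, edgeR adjusted p = 0.00282). Mylk4 had 0.899, 0.602, 0.270, 2.03 and 1.01 CPM in ACD controls, against 8.07, 4.76, 4.51, 5.32 and 3.33 CPM in AD controls (-2.42 ± 0.51, edgeR adjusted p = 0.000481). Neither gene overlapped between the models.

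The fall was uneven between partners in the same filament. Of the heavy chains Myh1, Myh2 and Myh4 fell and Myh7 was at -0.92 ± 0.68, while of 5 light chain and kinase genes only Mylk4 fell. Acta1 had 369, 361, 176, 403 and 325 CPM in ACD controls, against 602, 328, 323, 299.6 and 579 CPM in AD controls, overlapping groups at -0.38 ± 0.54 (edgeR adjusted p = 0.552). Myl1, the fast essential light chain, had 117, 135, 63.4, 163 and 124 CPM in ACD controls, against 241, 81.5, 72.6, 88.3 and 109.8 CPM in AD controls, a difference of 0.02 ± 0.58. Myh1 thus differed between the models while Myl1, its partner in the same filament, had overlapping groups and a fold change near 0 that changed sign when single libraries were left out. Tnnc1 was the highest at 0.57 ± 0.43 and did not pass.

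Of the troponins only the slow gene Tnni1 fell, by 1.67 on the log2 scale. Of 11 scaffold genes 6 fell, among them Ky by 2.12, Neb by 1.88 and Ttn by 1.71. Of 7 calcium genes 5 fell, Ryr1 by 1.83, Cacna1s by 1.31, Jph1 by 1.14 and Jph2 by 0.97 beside Atp2a1. Of 5 energy genes Ampd1 fell, by 1.72. Fbxo32 had 11.0, 9.19, 11.3, 10.5 and 10.5 CPM in ACD controls, against 22.9, 21.02, 37.0, 41.2 and 127 CPM in AD controls. The ACD values were within 1 narrow band below all of AD, with -2.25 ± 0.45 and an edgeR adjusted p = 0.000332. Mstn fell by 1.97, and Trim63 was at -1.94 ± 0.88 (edgeR adjusted p = 0.0622).

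**Figure D5:**
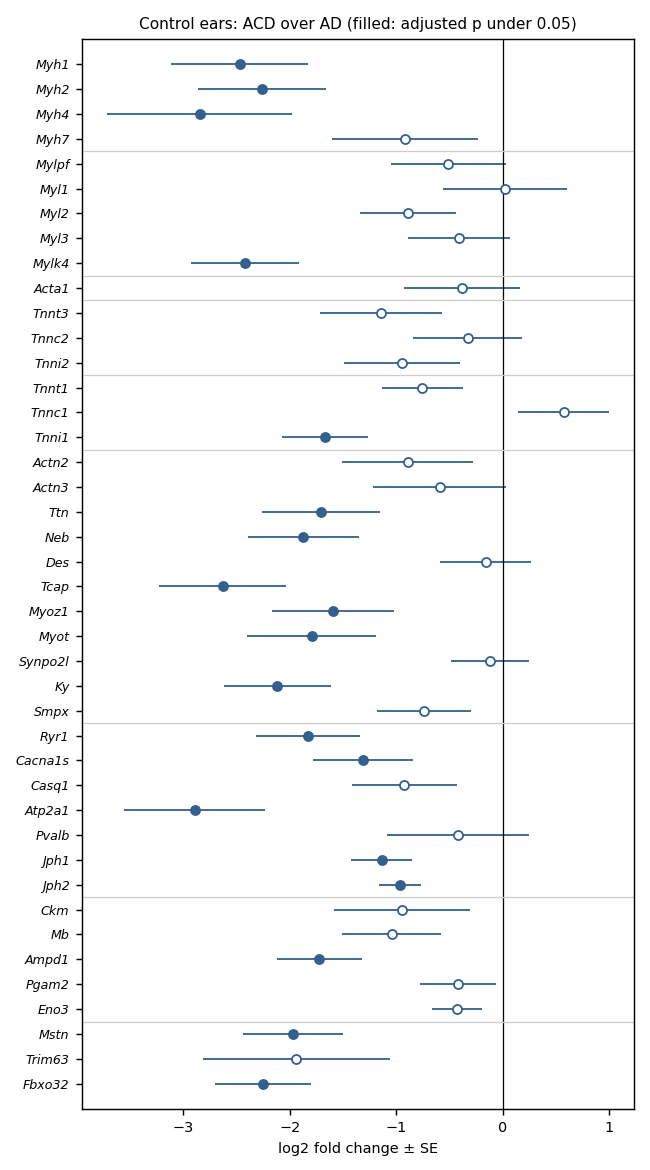
Log2 fold changes (x axis, ACD control over AD control) with standard errors for the 42 members by role, filled where the adjusted p was under 0.05. The 19 filled points are all below 0, with Atp2a1 and Myh4 farthest to the left, and Tnnc1 at 0.57 is farthest to the right.

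How far the members vary among themselves was described by setting each log2 CPM (pseudocount 0.1) against the median of the 42 members in the same library. On this relative scale Trim63 averaged -0.33 in AD SB415286 ears and -2.17 in AD controls, Tnni1 averaged -0.31 with SB415286 and -1.72 in controls, and Fbxo32 averaged 1.53 with SB415286 and 0.23 in controls, each with overlapping groups. Myh7 averaged -3.91 in AD SB415286 ears and -2.45 in AD controls, while Tnnt3 averaged 1.99 with SB415286 and 2.45 in controls, and Myot 0.10 with SB415286 and 0.59 in controls. In Myh7, Tnnt3 and Myot every SB415286 library was below every control. In Ky, Myl2, Mylk4, Mstn, Synpo2l and Jph2, which were called lower in AD, the groups overlapped on this scale. The overlap was smallest in Myl2, with a highest SB415286 value of -3.847 and a lowest control of -3.854. In ACD ears Acta1 averaged 4.88 with SB415286 and 4.68 in controls on the same scale.

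Likeness to the member mean was measured as Pearson's r of log2 CPM (pseudocount 2) over the 10 AD and over the 10 ACD libraries, taking the lower of the 2, and it is a description since the points share libraries and depth. Genes had to average at least 1 CPM in both tables, so Ky, Mylk4, Mstn and Myl3 have no value, and each member counts in the mean it is set against. Among the other members Tnnt3 and Tnni2 reached 0.99 and Tnnc2, Ckm, Myot and Acta1 0.98. At the other end stood Jph1 and Fbxo32 at 0.14, Ampd1 at 0.26, Tnni1 at 0.27 and Trim63 at 0.48. Outside the list the most like genes were Trdn at 0.99, a partner of the calcium release channel, Myoz2 and Xirp2 at 0.98, and Eef1a2, an elongation factor, at 0.97. Pygm, muscle glycogen phosphorylase, Srl, Myom1, Cmya5, Mybpc1 and Pdlim3 followed at 0.96. Of these 10, 7 were on the list of other skeletal muscle genes.

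On that list of 66 other skeletal muscle genes 65 did not pass in AD. The protease Capn3 fell, at -1.14 ± 0.21, and 0 rose, a count near the 1.23% called over all genes, and the median was -0.68 with 63 below 0. In ACD 0 of 64 tested passed, where 0.0264% of all genes did, and the median was -0.33. At an unadjusted p under 0.05 there were 3, where 2092 of all 15150 genes were. Between control ears 38 fell and 1, the caveolin Cav3, rose, with a median of -1.12, where 32.0% of all genes fell and 29.5% rose. Summed CPM of the list was 351 to 2069.6 in AD SB415286 ears and 1312 to 2814 in AD controls, and 283 to 1051 in ACD SB415286 ears and 646 to 1168 in ACD controls. Of 8 tested genes of muscle precursors and their regulators 2 fell in AD, Chodl at -2.48 ± 0.45 and Mef2c at -0.78 ± 0.15, where 0.647% of all genes fell. All 8 were below 0, with a median of -1.50. Genes of both lists share libraries, so their signs are not independent.

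Markers of other ear tissues were read beside the members. Smooth muscle genes had a median of -0.69 in AD, where Myl9 fell by 0.87 and 9 of 10 did not pass, and their summed CPM was 189 to 258 in SB415286 ears and 283 to 345 in controls, without overlap. Cartilage genes had a median of -1.45 in AD with 2 of 12 lower, Clec3a and Sox9, and summed CPM of 566 to 819 with SB415286 and 789 to 1239.5 in controls. Fat cell genes summed to 1179 to 1449 CPM with SB415286 and 717 to 1243 CPM in controls, and Car3, an enzyme also known from slow muscle, fell by 1.62 ± 0.30. Other medians in AD were -0.80 for T cell genes (7 of 7 below 0) and -0.74 for fibroblast genes (5 of 7). They were -0.30 for keratinocyte genes (7 of 8) and -0.18 for Schwann cell genes (5 of 8). Over all genes 0.647% fell in AD. In ACD no gene of the smooth muscle, cartilage or fat lists passed, and medians were -0.44, -0.38 and -0.12. Between control ears 7 of 10 smooth muscle genes, 7 of 13 cartilage genes, 5 of 10 fat cell genes, 5 of 8 keratinocyte genes and 7 of 8 Schwann cell genes fell and 0 of each rose, where 32.0% of all genes fell and 29.5% rose. In the same comparison 5 of 7 T cell genes and 4 of 7 fibroblast genes rose and 0 fell. The part of these tissues in the results for the members was not tested.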

How the data were processed

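Ear RNA of 20 libraries was enriched with oligo(dT) and sequenced on an MGISEQ-2000, per the labels' protocols. HISAT, HISAT2, Bowtie2 2.2.5, RSEM 1.2.8 and GRCm38.p6 are listed in the submitters' processing notes, beside a human build, and their roles are not given in the sources used here. The deposited tables hold estimated counts of reads and FPKM per gene and library that the authors made, per the file headers. In them, 38 columns of TPM or means were not used. The counts, rounded to whole numbers, were tested in edgeR 4.0.16 (R 4.3.3) with TMM scaling, filterByExpr, the robust quasi-likelihood test and Benjamini-Hochberg adjustment over all genes tested, at 0.05. The AD and ACD tables were fitted apart, and the control comparison and the difference in 1 fit of 20 libraries over 18835 shared genes. Standard errors are the log2 fold change over the root of F. CPM are scaled within a table unless stated.

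Alternatives were DESeq2 1.42.0, limma 3.58.1 with voom or log2 FPKM, other scalings and filters, a replicate block and leaving libraries out. The procedure was tested on simulated data. The members and all gene lists were chosen with earlier results of these data known. Values per library are given for the 2 members of each role with the highest FPKM, members past the threshold (at most 10, otherwise the 5 largest falls) and Ky, Myl2, Mylk4, Mstn and Synpo2l. All of these are given in AD, and a part of them in the other comparisons. Promoter sequences and coordinates are RefSeq's for GRCm38.p6. Strand use in counting is not stated, and reads of near-identical paralogues may be split.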

Additional observations from a re-analysis of the deposited data

Results flagged for a closer look

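In each group of 5 libraries the gap between the highest or lowest library and its neighbour was set against the group's range, and 10 of 104 values looked at were beyond Dixon's 95% critical value of 0.71. With a normal spread chance would flag about 1 in 20 groups, and members share libraries, so these are not independent. The values were CPM without logs, so high libraries are flagged more readily than low ones. A low library such as AD SB415286 library 7 can go unflagged on this scale. All 10 were high values in AD control ears, 7 of them in control 6 and 3 in control 1.

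Control 6 stood apart for Myh1, at 1373 CPM with 585 CPM in the next control, for Myh4, at 278 CPM with 89.5 CPM in the next, and for Atp2a1, at 1171 CPM with 426 CPM in the next. The same library had 351 CPM of Des (next 199), 188 CPM of Tcap (next 95.2), 55.0 CPM of Trim63 (next 8.05) and 129.8 CPM of Fbxo32 (next 41.7). Control 1 stood apart for Mylpf, at 240.2 CPM with 137 CPM in the next, for Myl1, at 246 CPM with 112 CPM in the next, and for Mb, at 310.2 CPM with 187 CPM in the next. Control 6 was thus high in heavy chains, the calcium pump and both ubiquitin ligases, and control 1 in light chains and myoglobin.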

How the results depend on the processing

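The AD count of 6 members past the threshold was 10 with DESeq2, 16 with limma voom and 3 with limma on log2(FPKM + 0.1). It was 14 without SB415286 library 7 and control 6 together, and 0 to 10 when 1 library was left out. The shares of all genes called in these settings are not given. A higher count may thus come from a setting that calls more genes of any kind. The AD median was -1.44 to -0.69 when 1 library was left out and -0.43 without both of those libraries. The ACD count was 0 in all 10 such fits, with medians of -0.68 to -0.21. In control ears the count ran from 17 to 24 and the median from -1.16 to -0.89. For the difference of effects DESeq2 and voom gave 2 each, and leaving out 1 library 0 to 1, with 1 only without AD SB415286 library 7 or AD control 6. Here and in control ears the shares of all genes called are not given either.

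The labels do not say whether library numbers shared by SB415286 and control libraries pair them. Deviations of same-numbered libraries correlated at -0.27, -0.27 and 0.30 in AD and at -0.20, -0.05 and 0.22 in ACD. These values differ in sign and show no common pairing, but 3 per model are too few to exclude one. With the library numbers as a replicate block the AD count was 0, the ACD median was 0.0762, and AD Myh1 turned to 0.12. Only numbers 2, 4 and 6 in AD and 3, 4 and 5 in ACD occur in both groups. A library with any other number takes up its own block, so the block fits rest on the shared numbers alone. AD SB415286 library 7 and ACD SB415286 libraries 7 and 8 thus had no part in them. In ACD the block turned Myh4 to 0.43, Myl1 to 0.0908, Acta1 to 0.18, Tnnt3 to 0.0762, Tnni2 to 0.0576, Tnnt1 to 0.18, Tnni1 to 0.14, Des to 0.41, Tcap to 0.0231, Synpo2l to 0.70, Atp2a1 to 0.29, Pvalb to 0.21, Jph2 to 0.19, Ckm to 0.0125, Mb to 0.31 and Trim63 to 0.0504.

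When 1 library was left out, AD Myh1 lay between -0.76 and 0.17 and AD Atp2a1 between -1.01 and 0.0450, above 0 only without control 6. Without SB415286 library 7 as well, Myh1 turned to 0.46, Tcap to 0.21 and Atp2a1 to 0.33. In ACD, Des lay between -0.37 and 0.0789, Synpo2l between -0.26 and 0.18, and Fbxo32 between -0.16 and 0.0271. In control ears Myl1 lay between -0.11 and 0.45, Des between -0.38 and 0.12 (0.0156 with voom), and Synpo2l between -0.35 and 0.15. The cause was not tested. Members with few reads, such as Ky at 4 counts, limit the precision of their fold changes.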
